A study of Mus musculus with 6 samples.

Results

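Malat1, Neat1, Gas5, Snhg1, Snhg3, Snhg6, Snhg8 and Snhg12, long RNAs without a protein product, were followed in GC1-Spg cells after silencing of the noncoding RNA mrhl. All probe sets paired with exactly 1 gene symbol, and that symbol among these 8, were taken, which gave 22 of the 45037 probe sets that are not controls, for 8 of the 18193 genes that have such a probe set. Malat1 was read by 7 probe sets, Snhg1 by 5, Gas5 by 4, Neat1 by 2, and Snhg3, Snhg6, Snhg8 and Snhg12 by 1 each. A further 2 probe sets that also carry the symbol of a small nucleolar RNA (snoRNA) were left out.

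GC1-Spg is an immortalized mouse cell line of spermatogonial origin. Both groups were transfected with siRNA at 100 nM, the controls with a scrambled siRNA and the others with siRNA to mrhl, and 44 h passed before the cells' RNA was isolated. Each group had 3 biological replicates, each on its own 1-colour Affymetrix array, and untransfected cells were not analysed here. The values are log2 expression, 1 per probe set and array, and the medians of the 6 arrays spanned 0.11. The probe table names mrhl for none of the probe sets, so the silencing itself was not measured here. Of 21 spermatogonial markers looked up, 13 had a probe set bright enough to be tested and 5 lay above the level of the median probe set, 5.23. The germ cell genes Ddx4 and Dazl were too dim to be tested, with a mean under 3.62, while Itga6 and Bcl6b lay at 10.3 and 8.04. Of 8 Sertoli cell markers, 6 lay above the median level, with Wt1 at 10.8 and Clu at 12.2. Amh at 4.96 and Fshr at 3.72 lay below it. Above the median level, too, were 1 of the 3 tested Leydig cell markers and 2 of the 5 peritubular myoid markers. No gene of these marker lists passed between the groups (limma). Only 1, the Sertoli cell marker Dhh, had an unadjusted p under 0.05 (limma), where 3.44% of all probe sets did. With the replicate number as a block in the fit, Dhh, Etv5 and Acta2 did (limma), where 10.1% of all probe sets did. None passed in that fit either. The part of other cell types in the results below was not tested.

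Malat1 gathers in nuclear speckles, the domains that hold splicing factors, and Neat1 is the scaffold of paraspeckles, a neighbouring kind of nuclear body that retains RNAs and RNA-binding proteins. Gas5 and the Snhg genes are hosts of snoRNAs: the snoRNAs lie in their introns, are cut out after splicing, and guide 2′-O-methylation (box C/D type) or pseudouridylation (box H/ACA type) of ribosomal and other RNAs. The spliced exons of such hosts are often short-lived and removed by nonsense-mediated decay when translated, and many hosts start in a pyrimidine-rich stretch of the kind that marks mRNAs of the translation machinery. The probe sets taken here carry the symbol of the host alone. Probe sequences were not at hand, so which part of a host RNA each one reads is not known.

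The start regions of the members are shown so that the snoRNA hosts can be searched for the pyrimidine-rich start described above and set beside Malat1. RefSeq promoters were matched for 6 of the 8 members, with 2 windows for Gas5; Neat1 and Snhg6 had no entry. Each sequence below runs 5′ to 3′ on the transcribed strand, from 50 bases before to 50 bases after the annotated start, in build GRCm38.p6. Capitals mark the letters TATA beginning 40 to 20 bases before the start, and runs of at least 5 bases made only of C or T that reach into the stretch from 5 bases before to 10 bases after it.
Malat1, chr19:5802623-5802722, minus strand: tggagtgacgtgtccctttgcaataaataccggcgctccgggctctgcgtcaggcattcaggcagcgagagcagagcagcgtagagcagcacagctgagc
Gas5, first window, chr1:161034551-161034650, plus strand: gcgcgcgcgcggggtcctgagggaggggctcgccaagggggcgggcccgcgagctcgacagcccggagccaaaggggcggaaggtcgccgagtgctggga
Gas5, second window, chr1:161035116-161035215, plus strand: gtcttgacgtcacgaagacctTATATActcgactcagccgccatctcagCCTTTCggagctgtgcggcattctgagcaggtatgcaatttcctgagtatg
Snhg1, chr19:8723437-8723536, plus strand: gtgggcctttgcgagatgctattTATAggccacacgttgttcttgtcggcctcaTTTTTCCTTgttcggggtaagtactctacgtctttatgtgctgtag
Snhg3, chr4:132353637-132353736, minus strand: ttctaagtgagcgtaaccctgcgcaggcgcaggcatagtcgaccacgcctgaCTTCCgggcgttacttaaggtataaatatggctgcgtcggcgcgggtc
Snhg8, chr3:123508287-123508386, minus strand: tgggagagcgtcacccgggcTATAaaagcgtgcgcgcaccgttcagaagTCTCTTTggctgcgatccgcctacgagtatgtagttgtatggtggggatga
Snhg12, chr4:132308628-132308727, plus strand: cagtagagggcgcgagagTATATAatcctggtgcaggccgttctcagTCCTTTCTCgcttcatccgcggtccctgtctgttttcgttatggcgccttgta

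A pyrimidine run lay at or near the start in 5 of the 7 windows, in each of the 5 hosts matched. It covered the annotated start in the second Gas5 window, Snhg8 and Snhg12. In Snhg1 and Snhg3 it began after the start, at positions 5 and 3 with the start as position 1. The run was 9 bases long in Snhg1 and Snhg12 and 5 in Snhg3. The same rule found a run in 38% of all 32851 promoter windows. The letters TATA, which read the same on both strands, were found in 4 of the 7 windows, those of Snhg1, Snhg8, Snhg12 and the second of Gas5, and in 5.81% of all windows. The Malat1 window and the first Gas5 window held neither. Runs were searched on the transcribed strand only, and overlapping TATA matches, as in Gas5 and Snhg12, are joined in the capitals. A match describes the letters and does not show a binding site.

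Against this background the comparison of mrhl siRNA with scrambled siRNA asks whether silencing one nuclear noncoding RNA moves the level of others. No member probe set passed an adjusted p of 0.05 (limma, adjusted p from 0.965 to 0.999), as was the case for all 33778 probe sets tested (0%). All 22 passed the filter on low values, and each was brighter than the median probe set. At an unadjusted p under 0.05, 0 of the 22 were found in limma, where 3.44% of all probe sets were. The groups overlapped in each of the 22, where 8.40% of all probe sets had groups that did not overlap, 2.58% with mrhl siRNA higher and 5.82% with it lower. Log2 fold changes, mrhl siRNA minus scrambled siRNA, were positive in 8 and negative in 14 probe sets. Their median was -0.066, against -0.033 over all probe sets tested. A change of at least 1.5-fold was measured in 1 of the 22, a Malat1 probe set.

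**Figure D1:**
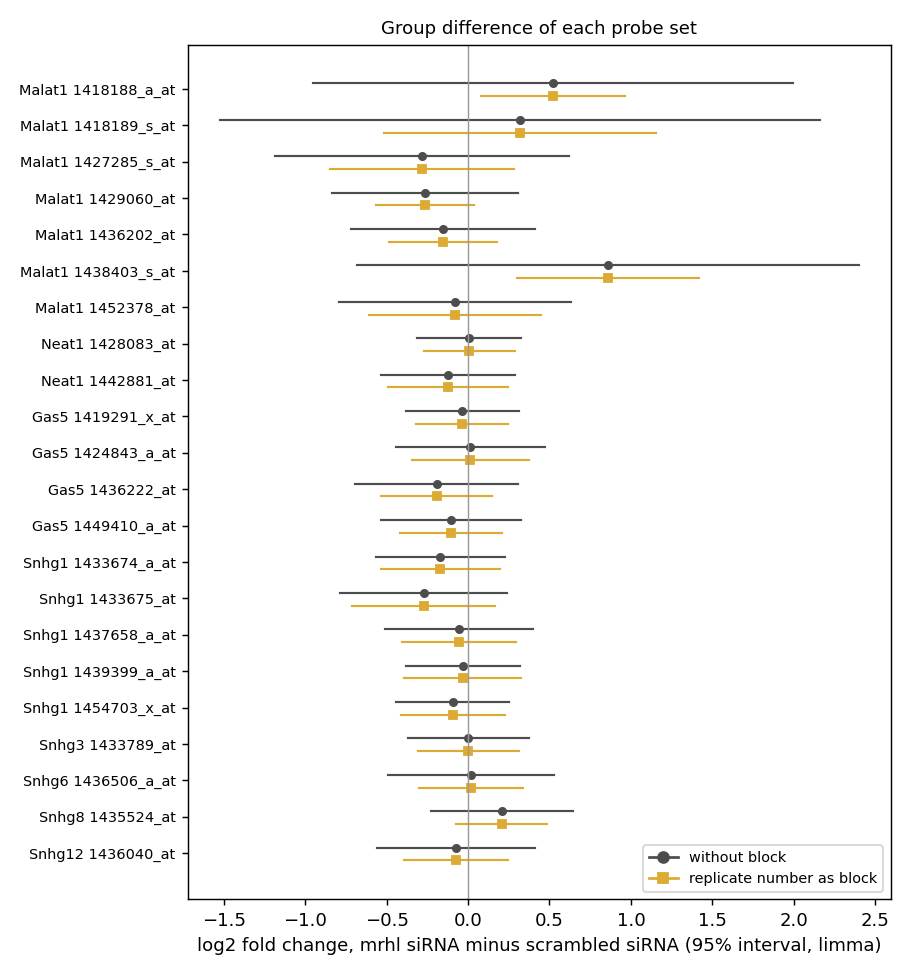
Log2 fold change (mrhl siRNA minus scrambled siRNA, x axis) of each of the 22 probe sets (y axis), with 95% intervals from limma on 3 arrays per group. Grey circles are from the fit without a block and yellow squares from the fit with the replicate number as a block. Every grey interval includes 0, and only the yellow intervals of Malat1 probe sets 1418188_a_at and 1438403_s_at do not.

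Replicate numbers are shared by the groups. Deviations from group means correlated more between arrays of equal number than otherwise, though at only 0.201 for number 2. Arrays with the same number are therefore treated here as pairs, a choice that rests on these same data. By the levels themselves, scrambled siRNA replicate 2 was closer to mrhl siRNA replicate 3 (r of 0.982) than to mrhl siRNA replicate 2 (0.980). Scrambled siRNA replicates 1 and 3 were closest to the mrhl array of equal number (0.986 and 0.989). With the number as a block in the fit, 2 of the 22 member probe sets had an unadjusted p under 0.05 (limma), both of Malat1, where 10.1% of all probe sets did. None passed after adjustment (limma, adjusted p from 0.487 to 0.995). The 3 pairs differed from each other. In the pair of number 2, 18 of the 22 probe sets were lower after mrhl siRNA, with a median difference of -0.30, where 59.5% of all probe sets were lower. In the pair of number 1, 7 were lower and 15 higher, with a median of 0.058, and in that of number 3, 10 were lower and 12 higher, with a median of 0.012. Over all 3 pairs, 3 member probe sets (Malat1 1429060_at, Gas5 1436222_at and Snhg1 1433675_at) were lower each time and 3 (Malat1 1418188_a_at and 1438403_s_at, and Snhg8) were higher each time, where 23.4% and 14.1% of all probe sets were. Leaving out an array let the groups of some member probe sets part, but of many other probe sets too. Without scrambled siRNA replicate 1 this held for 4 of the 22 member probe sets (24.7% of all probe sets). It held for 3 without mrhl siRNA replicate 1 (15.7%) and for 1 without scrambled siRNA replicate 3 (14.9%). Without mrhl siRNA replicate 3 it held for 1 (26.6%), and without both arrays of number 1 for 7 of the 22 (33.2%).

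Control rows for 18S ribosomal RNA differed widely between the arrays. Their mean log2 signal was 3.76, 6.50 and 5.52 in scrambled siRNA replicates 1, 2 and 3, and 3.42, 3.37 and 5.72 in mrhl siRNA replicates 1, 2 and 3. In the pair of number 2 it was therefore lower by a log2 difference of -3.14 after mrhl siRNA, while the other pairs differed by -0.34 and 0.20. The difference between the 3′ and 5′ control rows of Actb, a check of RNA integrity, ran from 0.38 to 0.63 over the 6 arrays, and that of Gapdh from -0.20 to -0.08. Over the 6 arrays, the level of 8 of the 22 member probe sets (36.4%) correlated with the 18S signal at Pearson's r above 0.8, where 11.5% of all probe sets did. These 6 points are single arrays that share replicate numbers, so the correlations describe the arrays, and no test was made of them. The 8 probe sets that followed the 18S signal belong to Malat1, Gas5, Snhg1 and Snhg12 only. Probe sets of 1 gene can repeat a reading, as Snhg1 1433674_a_at and 1433675_at did (r of 0.989), so the 8 are not separate genes. With that signal as a covariate, an alternative added after seeing the data, 1 of the 22, Malat1 1418189_s_at, had an unadjusted p under 0.05, where 4.93% of all probe sets did, and none passed (limma, adjusted p from 0.981 upward). Which part the 18S difference, or what lies behind it, had in the results was not tested.

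Malat1 was the most variable of the 8 genes, and its 7 probe sets fell apart into different patterns. Probe set 1418188_a_at read 7.24, 8.23 and 8.88 in scrambled siRNA replicates 1, 2 and 3, and 7.33, 8.94 and 9.65 in mrhl siRNA replicates 1, 2 and 3. Probe set 1438403_s_at read 7.93, 8.71 and 9.62 after scrambled siRNA and 8.20, 10.02 and 10.61 after mrhl siRNA, in the same order. Both were lowest in the arrays of number 1 and highest in the mrhl array of number 3, and both were higher after mrhl siRNA in 3 of 3 pairs although the groups overlapped.

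The differences within pairs were 0.084, 0.71 and 0.77 for 1418188_a_at and 0.27, 1.31 and 1.00 for 1438403_s_at. The group means of 1438403_s_at were 8.75 ± 0.85 and 9.61 ± 1.26 (SD, n = 3), a 1.81-fold difference. Its log2 fold change of 0.86 had an SE of 0.658 and did not pass (limma, adjusted p = 0.965). With the replicate block the SE was 0.219, and the call did not change (limma, unadjusted p = 0.0108, adjusted p = 0.487). Probe set 1418188_a_at had 0.52 with an SE of 0.63 and a 95% interval of -0.95 to 2.00, and with the block the SE was 0.172 (limma, unadjusted p = 0.0287, adjusted p = 0.487). Single arrays moved both values: 1438403_s_at had 1.57 without mrhl siRNA replicate 1 and 0.36 without mrhl siRNA replicate 3, and 1418188_a_at had 1.18 and 0.01, none of which passed.

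Malat1 probe set 1418189_s_at, the widest in range, read 7.23, 8.65 and 9.18 after scrambled siRNA and 7.47, 8.16 and 10.39 after mrhl siRNA. Here the pair of number 2 went down by 0.49 and that of number 3 up by 1.21, so the direction differed between pairs. In these 3 probe sets the pair means differed by 1.98 to 2.43 on the log2 scale, or 3.96- to 5.38-fold, and in each this was at least 2.39 times the group difference. Their spread within groups lay at the 99.4th percentile or higher of all probe sets tested.

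Malat1 probe sets 1427285_s_at, 1452378_at and 1429060_at followed the 18S signal. Probe set 1427285_s_at read 4.86, 5.79 and 5.93 after scrambled siRNA and 4.88, 4.89 and 5.97 after mrhl siRNA, which puts the 3 arrays with low 18S signal within 0.03 of each other and well below the other 3. Its correlation with the 18S signal over the 6 arrays was 0.93. Probe set 1452378_at read 5.99, 6.78 and 6.57, and then 5.99, 6.17 and 6.94, with a correlation of 0.92. Their log2 fold changes were -0.28 (SE 0.386) and -0.08 (SE 0.304). With the 18S signal as a covariate they were 0.17 and 0.28, so the sign turned.

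Probe set 1429060_at, whose correlation with the 18S signal was 0.85, read 9.20, 9.77 and 9.98 after scrambled siRNA and 9.10, 9.39 and 9.66 after mrhl siRNA, lower in 3 of 3 pairs, with a log2 fold change of -0.26 (SE 0.245, limma, adjusted p = 0.965). With the 18S signal as a covariate it was -0.037, and it ran from -0.49 without scrambled siRNA replicate 1 to -0.099 without scrambled siRNA replicate 3. The seventh Malat1 probe set, 1436202_at, did not follow the 18S signal (r of 0.02). It read 9.97, 9.50 and 9.77, and then 9.90, 9.11 and 9.77, and so was highest, not lowest, in the arrays of number 1. Its log2 fold change was -0.15 (SE 0.242). Among the 21 pairs that the 7 Malat1 probe sets form, correlations over the 6 arrays ran from -0.48 to 0.98, and 5 were negative. A single direction for Malat1 therefore cannot be read from these arrays: 3 of its probe sets had a positive and 4 a negative log2 fold change, from -0.28 to 0.86.

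Neat1 was nearly level. Its bright probe set 1428083_at read 11.38, 11.49 and 11.35 after scrambled siRNA and 11.49, 11.45 and 11.31 after mrhl siRNA. The 6 values lay within 0.19 of each other, and the within-group spread was at the 5.68th percentile of all probe sets. Between the groups it differed by 0.0075 on the log2 scale (SE 0.137), with a 95% interval of -0.31 to 0.33 (limma, adjusted p = 0.998). The dimmer probe set 1442881_at read 6.02, 5.78 and 5.82, and then 5.82, 5.96 and 5.46, with a log2 fold change of -0.12 (SE 0.177). Only the mrhl array of number 3 stood apart, at the low end.

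**Figure D2:**
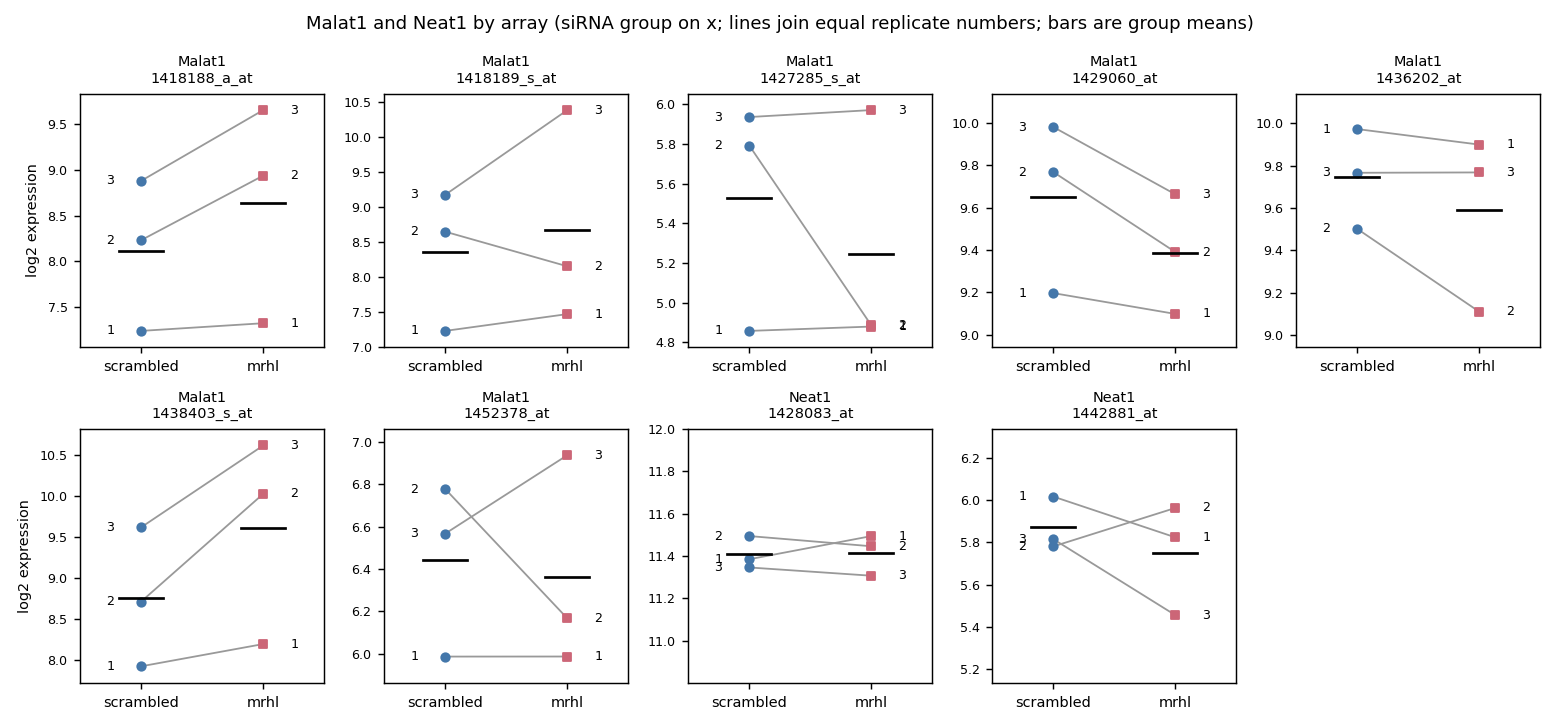
Log2 expression (y axis, scaled to each panel) of the 7 Malat1 and 2 Neat1 probe sets on the 3 scrambled siRNA (circles) and 3 mrhl siRNA (squares) arrays; digits give the replicate number, lines join equal numbers and bars are group means. In 1418188_a_at, 1418189_s_at and 1438403_s_at the numbers lie much farther apart than the groups, while Neat1 1428083_at spans only 11.31 to 11.49.

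Gas5, named for its accumulation in growth-arrested cells, hosts box C/D snoRNAs and was read by 4 probe sets that split in 2. The bright pair, 1419291_x_at and 1449410_a_at, was low in the arrays of number 1 and in the mrhl array of number 2. Probe set 1449410_a_at read 10.03, 10.43 and 10.45 after scrambled siRNA and 10.04, 10.12 and 10.43 after mrhl siRNA, and correlated with the 18S signal at 0.94. Probe set 1419291_x_at read 10.67, 10.89 and 10.87, and then 10.66, 10.74 and 10.93, with a correlation of 0.91. Its name ending x marks probes that can also match other sequences.

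The log2 fold changes of this bright pair were -0.10 (SE 0.184) and -0.036 (SE 0.149), and with the 18S signal as a covariate 0.064 and 0.063. The other 2 did not follow the 18S signal (r of 0.056 and -0.10). Probe set 1424843_a_at read 7.20, 7.59 and 6.94, and then 7.34, 7.30 and 7.12, and its means of 7.24 ± 0.33 and 7.25 ± 0.12 (SD, n = 3) were equal within their spread. Probe set 1436222_at read 8.04, 7.75 and 7.66 after scrambled siRNA and 7.99, 7.29 and 7.59 after mrhl siRNA. It was lower in 3 of 3 pairs, with a log2 fold change of -0.19 (SE 0.213) that did not pass (limma, adjusted p = 0.965). Single arrays moved the value: it was -0.026 without mrhl siRNA replicate 2, -0.084 without scrambled siRNA replicate 1 and -0.38 without mrhl siRNA replicate 1.

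Snhg1, a host of several box C/D snoRNAs, had negative log2 fold changes in all 5 of its probe sets, from -0.27 to -0.033. Probe set 1433675_at, with the lowest log2 fold change, read 10.09, 10.69 and 10.55 after scrambled siRNA and 10.04, 9.98 and 10.49 after mrhl siRNA. It correlated with the 18S signal at 0.99, and the differences within pairs were -0.051, -0.71 and -0.058, so the group difference came almost wholly from the pair of number 2.

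The fit gave 1433675_at a log2 fold change of -0.27 (SE 0.218, limma, adjusted p = 0.965), and -0.038 with the 18S signal as a covariate. It ran from -0.45 without scrambled siRNA replicate 1 to -0.15 without scrambled siRNA replicate 2. Probe set 1433674_a_at read 10.97, 11.37 and 11.27, and then 11.00, 10.89 and 11.21, also lowest in the mrhl array of number 2, with a correlation of 0.97. In the pair of number 2 all 5 Snhg1 probe sets were lower, by 0.30 to 0.71, while in the other pairs their differences lay between -0.061 and 0.20. Probe sets 1437658_a_at and 1454703_x_at did not follow the 18S signal (r of -0.22 and 0.16), and their log2 fold changes were -0.055 (SE 0.195) and -0.094 (SE 0.148). The signs are not independent evidence of a decrease, because the 5 probe sets are paired with 1 gene and share the same arrays. The log2 fold change of 1439399_a_at turned to 0.0021 after quantile normalization.

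Of the hosts with 1 probe set each, Snhg8, which carries the H/ACA snoRNA Snora24, was the only one higher after mrhl siRNA in 3 of 3 pairs. It read 9.87, 9.44 and 9.63 after scrambled siRNA and 10.13, 9.70 and 9.73 after mrhl siRNA. The differences within pairs were 0.26, 0.26 and 0.10, yet the control array of number 1 lay above the mrhl arrays of numbers 2 and 3, so the groups overlapped. Its log2 fold change, 0.21 with an SE of 0.186 and a 95% interval of -0.23 to 0.64, did not pass (limma, adjusted p = 0.965). With the replicate block the SE was 0.109 and the adjusted p 0.543 (limma).

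Snhg8 was also the member probe set whose level ran most strongly against the 18S signal, with a correlation of -0.76. As a covariate, that signal brought the log2 fold change to 0.078. Snhg8 kept a positive value in every alternative run that could change it, from 0.068 to 0.32 with an array left out.

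Snhg12 and Snhg3 lie close together in the genome, but their profiles differed. Snhg12, host of several H/ACA snoRNAs and a box C/D snoRNA, read 7.58, 8.08 and 8.18 after scrambled siRNA and 7.69, 7.81 and 8.11 after mrhl siRNA. It was lowest in the arrays of number 1, and its log2 fold change was -0.077 (SE 0.207). Snhg3, host of the U17 snoRNA that takes part in processing of ribosomal RNA, read 7.87, 8.01 and 7.72, and then 8.05, 7.84 and 7.71. Its group means were both 7.87 and differed by 0.0024 on the log2 scale (SE 0.158), with an interval of -0.37 to 0.37.

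Snhg6, which hosts a box C/D snoRNA, read 9.25, 9.70 and 9.93 after scrambled siRNA and 9.48, 9.54 and 9.91 after mrhl siRNA. Its order followed the replicate number in both groups, and 89.1% of its variance over the 6 arrays lay between numbers against 0.133% between groups. The log2 fold change was 0.018 (SE 0.218, limma, adjusted p = 0.996).

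**Figure D3:**
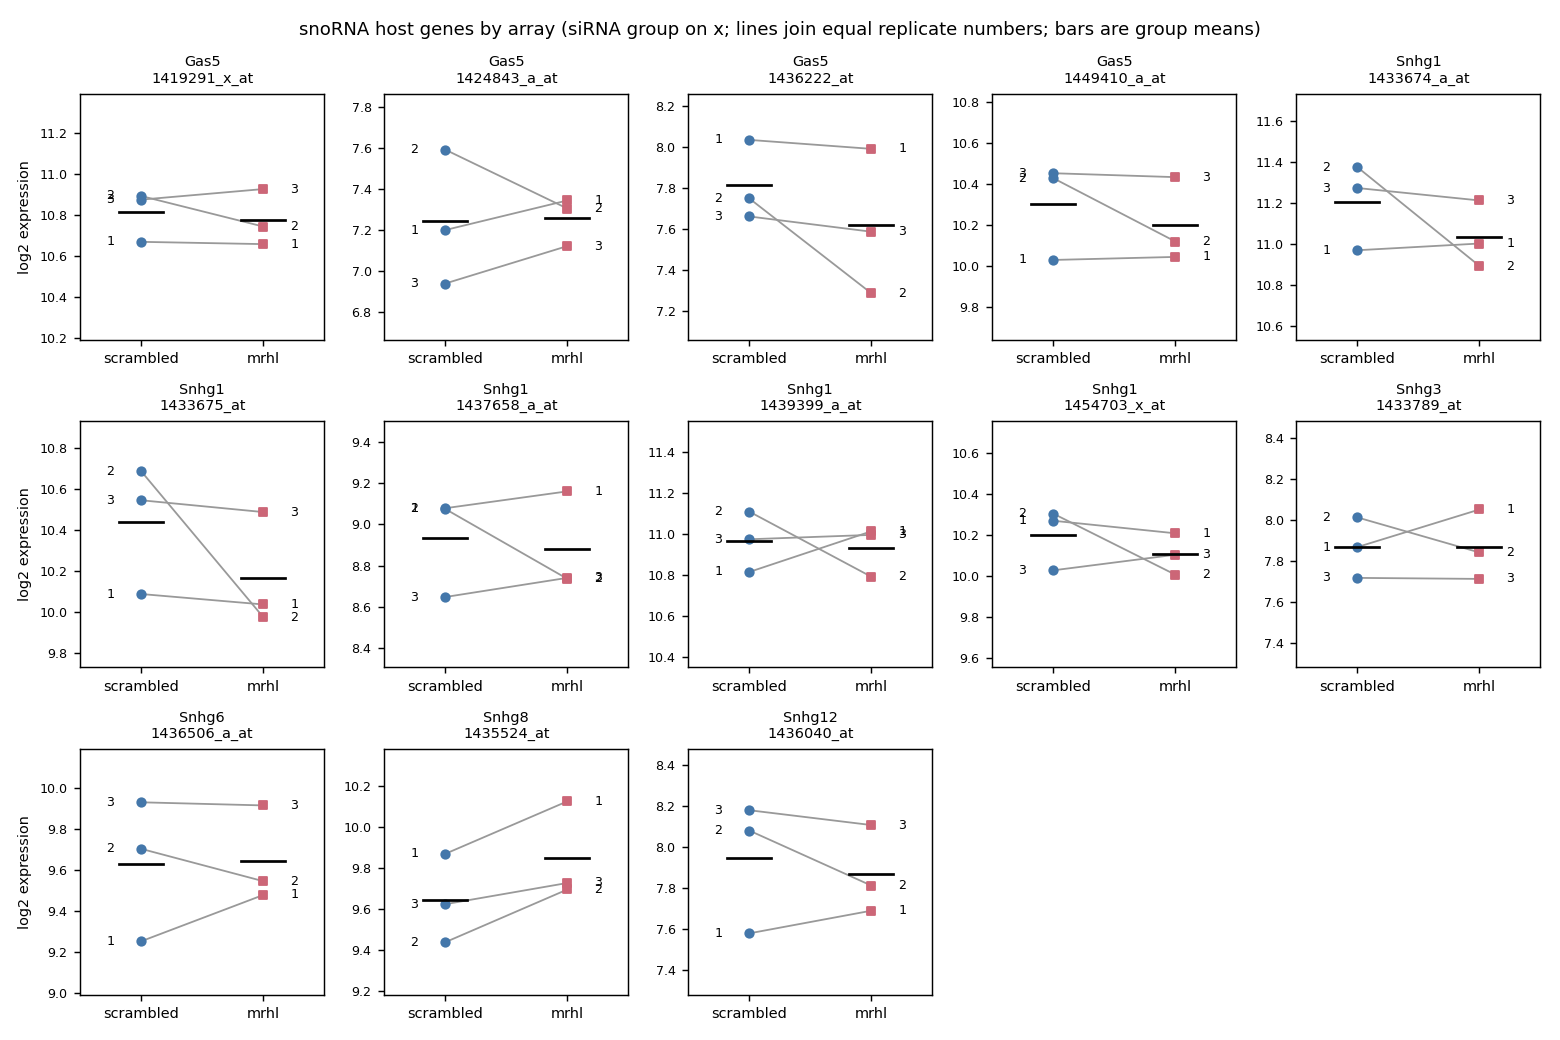
Log2 expression (y axis, scaled to each panel) of the 13 probe sets of the 6 snoRNA hosts on the 3 scrambled siRNA (circles) and 3 mrhl siRNA (squares) arrays; digits give the replicate number, lines join equal numbers and bars are group means. Snhg8 is higher after mrhl siRNA in 3 of 3 pairs, and the pair of number 2 goes down in all 5 Snhg1 panels.

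Across the 22 probe sets the replicate number separated the arrays more than the siRNA did. Between numbers lay a median of 74% of the variance of a member probe set over the 6 arrays, and between groups 7.30%. Over all probe sets tested these medians were 57.8% and 12.7%. The share between numbers exceeded that between groups in all 22 and was over 50% in 17 of them, where it was over 50% in 58.6% of all probe sets. With 3 numbers and 2 groups, numbers have more freedom to differ than groups, so these shares are read only beside those of all probe sets. The hosts Snhg6 and Snhg12 and both bright Gas5 probe sets were lowest in the arrays of number 1, as were 6 of the 7 Malat1 probe sets, counting means of both arrays, while Snhg8 and 1436222_at of Gas5 were highest there.

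**Figure D4:**
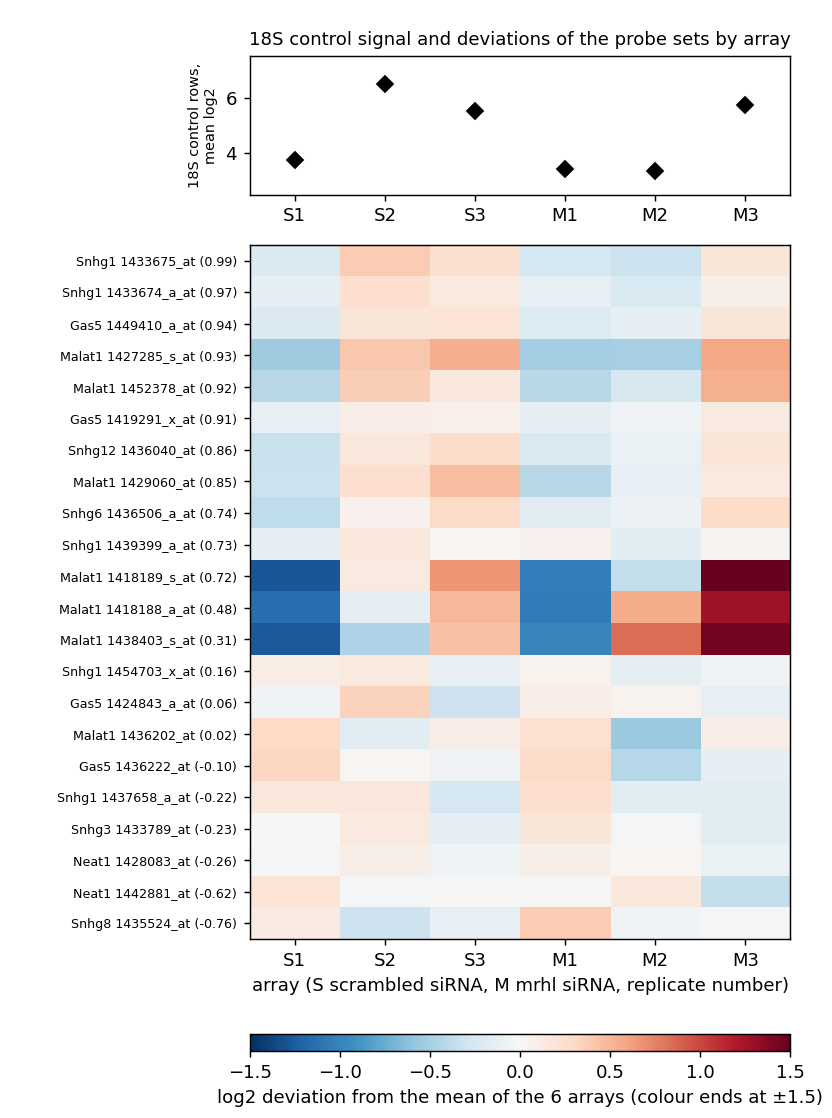
Top, mean log2 signal of the 3 control rows for 18S ribosomal RNA on each array (S, scrambled siRNA; M, mrhl siRNA; digit, replicate number). Bottom, log2 deviation of each of the 22 probe sets from its own mean over the 6 arrays, in order of its correlation with the 18S signal (in brackets), where red is higher and blue lower. Rows at the top, such as Snhg1 1433675_at (0.99), are blue in the 3 arrays with low 18S signal.

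For the brightest probe set of each member, the genes most like it were sought by Pearson correlation over the 6 arrays, with members left out. Those of Gas5 were Glud1, a mitochondrial glutamate dehydrogenase, and Cep57, a centrosomal protein (r of 0.999 and 0.998). Those of Snhg1 were Ccnt2, a cyclin of the elongation factor P-TEFb, and Sbno1 (0.998 and 0.997), and those of Snhg12 were Zfp367 and the nucleoporin gene Nup54 (0.998 each). For Snhg6 they were Intu and Rad23b (0.999 and 0.997), for Snhg8 Tmem256 and Sbno2 (0.999 and 0.998), and for Snhg3 the mitotic checkpoint gene Bub1b and the splicing factor gene Prpf31 (0.992 and 0.990). Neat1 had Hmmr and Prickle1 (0.996 each), and Malat1, through 1436202_at, had Chrna3 and Efcab14 (0.993 and 0.992). From 76 probe sets for Neat1 to 540 for Snhg12 lay above 0.95, and 6 arrays that share replicate numbers give many such values, so these names are a description of the arrays only.

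Other genes of the same processes, from lists of known members, were compared in the same way, each gene through its brightest probe set. Among 28 tested genes, of 45 listed, of other snoRNA hosts and long noncoding RNAs, 0 passed in either direction (limma), 11 log2 fold changes were positive and 17 negative, and the median was -0.06. The 2 with the smallest p were dim. Pantr1, transcribed beside Pou3f3, read 4.62, 4.50 and 4.53 after scrambled siRNA and 3.88, 3.86 and 4.16 after mrhl siRNA, so the groups did not overlap, as in 5.82% of all probe sets in that direction, with a log2 fold change of -0.58 (SE 0.148, limma, adjusted p = 0.965). Xist, the RNA of X inactivation, had -0.28 (SE 0.144) at levels of 4.18 and 3.90, also without overlap of the groups. These were the only 2 of the 28 genes with such groups, where 8.40% of all probe sets had them. Both were dimmer than the median probe set. Of the 28 genes, 5 correlated with the 18S signal at r above 0.8. In 1, Pantr1, the unadjusted p was under 0.05 (limma), where 3.44% of all probe sets reached that. With the replicate block 4 of the 28 did (limma), beside 10.1% of all probe sets, and 0 passed.

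The host gene Snhg4, named after its values were seen, was higher in 3 of 3 pairs, like Snhg8, as were 14.1% of all probe sets. It read 9.62, 9.27 and 9.23 after scrambled siRNA and 9.97, 9.66 and 9.44 after mrhl siRNA, a log2 fold change of 0.31 (SE 0.19), and its correlation with the 18S signal was -0.86. The hosts Snhg10 and Snhg16 of the same list, also named afterwards, were lower in 3 of 3 pairs, as were 23.4% of all probe sets. Their log2 fold changes were -0.26 each, and their correlations with the 18S signal 0.93 and 0.92. Rmst, Dancr and Airn of this list were also higher in 3 of 3 pairs, with 18S correlations of -0.044, -0.21 and 0.47. Pantr1, Xist, Oip5os1 and Pvt1 were also lower in 3 of 3, with 0.54, 0.82, 0.35 and 0.77.

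Partner proteins showed no call in either direction (limma, adjusted p under 0.05 in 0 genes of each list). In 1 of these genes, Srpk2, the unadjusted p was under 0.05 (limma), where 3.44% of all probe sets reached that. With the replicate block it was 0.056 for Srpk2, and under 0.05 for Srrm2 (0.027) and Dcp2 (0.0136) (limma). In that fit 10.1% of all probe sets were under 0.05, and no partner gene passed after adjustment. Of 18 tested protein-coding genes that host snoRNAs, from 25 listed, the log2 fold change was positive in 5 and negative in 13, and the median was -0.04. Of the 18, 7 correlated with the 18S signal at r above 0.8. Rabggtb, a geranylgeranyl transferase subunit, had -0.36 (SE 0.19) and the elongation factor gene Eef2 0.26 (SE 0.166). Of 21 genes of snoRNA-protein particles and their assembly, from 23 listed, 7 were positive and 14 negative, with a median of -0.036, and 5 followed the 18S signal in that sense. Within that list the nucleolar factor gene Tcof1 had 0.30 (SE 0.205) and Naf1, an assembly factor of H/ACA particles, -0.26 (SE 0.198).

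Of 19 paraspeckle protein genes, from 20 listed, 7 were positive and 12 negative, with a median of -0.035, and the RNA-binding protein genes Dazap1 and Hnrnpul1 had 0.17 (SE 0.129) and 0.18 (SE 0.143). In 2 of the 19, Dazap1 and Ewsr1, the groups did not overlap, both with mrhl siRNA higher. Of all probe sets, 8.40% had such groups, 2.58% in that direction. Of 26 nuclear speckle genes, from 27 listed, 10 were positive and 16 negative, with a median of -0.038. The 18S signal was followed at r above 0.8 by 4 of the paraspeckle and 7 of the speckle genes. The kinase gene Srpk2, whose product phosphorylates SR splicing factors, had -0.36 (SE 0.152), and Srsf5, itself an SR factor, -0.27 (SE 0.135), and in both the groups did not overlap. These are 2 of the 26 speckle genes, where 8.40% of all probe sets had such groups, 5.82% with mrhl siRNA lower. Of 15 genes of nonsense-mediated decay, from 20 listed, 6 were positive and 9 negative, with a median of -0.049, and 4 followed the 18S signal. The decapping enzyme gene Dcp2 had -0.45 (SE 0.242) and Smg9 0.23 (SE 0.166). These medians lie near the median of -0.033 over all probe sets tested. Groups that did not overlap were also found in 1 of the 18 protein-coding hosts and 2 of the 21 snoRNA-protein genes. In the decay genes it was 1 of the 15, beside 8.40% of all probe sets.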

How the data were processed

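RNA of 6 GC1-Spg cultures was measured on 1-colour Affymetrix arrays, 3 per group. Groups and replicate numbers come from the sample titles, per the labels. The deposited values are 1 log2 expression value per probe set and array; their range, not a label, shows the scale. GCOS and PLIER are named per the submitters' processing notes. Not given in the sources used here are versions, settings, normalization and genome build.

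Of 45101 rows, 64 controls and the 25% of probe sets with the lowest mean were left out of the tests, which left 33778. Groups were compared with limma 3.58.1 in R 4.3.3 (lmFit, eBayes), and p-values were adjusted over these 33778 by Benjamini-Hochberg. The fit was tested on simulated data. Numbers of arrays limit the precision: the median SE of a member's log2 fold change was 0.201.

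Deviations from group means correlated at 0.534, 0.201 and 0.567 between arrays of equal number and at -0.518 to 0.0684 otherwise. Equal numbers were therefore read as pairs, which the design text's independent experiments allow.

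All probe sets of the 8 genes were to be named, with the 2 genes of smallest p per related list where none passed and the 2 genes most correlated with each member. Members and lists were chosen with earlier results of these data known. Alternatives covered normalization, filter, variance model, array weights, the replicate block and left-out arrays. The values were log2, so the offsets planned for linear values were not run.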

Additional observations from a re-analysis of the deposited data

How the results depend on the processing

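No member probe set passed in the main fit or in any of the 16 alternatives (limma, smallest adjusted p of a member 0.195, with the replicate block and the trended, robust model). With the replicate block the count over all probe sets was 0. In this balanced design the block leaves each log2 fold change as it is, so the members' median of -0.066 could not move. The pairing changed no other call; only that block together with the trended, robust model, added after seeing the data, passed 2 probe sets, neither of a member. The members' median ran from -0.11 to 0.01 with an array left out. Member probe sets whose groups do not overlap numbered 0 to 4 with an array left out, and 7 (33.2% of all probe sets) without both arrays of number 1, added later.

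In 8 of the 22 probe sets the sign held in every alternative. Those that change only the filter, the block or the variance model leave each log2 fold change as it is. No sign could turn in them. With array weights, Malat1 1418189_s_at had -0.18, Snhg6 -0.11 and Snhg1 1437658_a_at 0.028. With the 18S covariate, also added later, Gas5 1419291_x_at had 0.063, Gas5 1449410_a_at 0.064, Malat1 1427285_s_at 0.17, Malat1 1452378_at 0.28, Neat1 1428083_at -0.011, Snhg3 -0.029, Snhg12 0.12 and Snhg1 1439399_a_at 0.049. Without number 1, Gas5 1424843_a_at had -0.052, Neat1 1428083_at -0.044, Snhg3 -0.088 and Snhg6 -0.086. After quantile normalization, Snhg1 1439399_a_at had 0.0021. The cause of these changes was not tested.

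With an array left out, the sign turned within these ranges: Gas5 1419291_x_at -0.11 to 0.023, Gas5 1424843_a_at -0.14 to 0.19, Malat1 1418189_s_at -0.54 to 0.92, Malat1 1436202_at -0.31 to 0.087, Malat1 1452378_at -0.37 to 0.11, Neat1 1428083_at -0.032 to 0.062, Neat1 1442881_at -0.23 to 0.022, Snhg1 1437658_a_at -0.20 to 0.018, Snhg1 1439399_a_at -0.11 to 0.039, Snhg12 -0.26 to 0.040, Snhg3 -0.089 to 0.080 and Snhg6 -0.17 to 0.17. With 3 arrays per group the 95% intervals of the members reached 0.32 to 1.84 to either side of the log2 fold change, and with the replicate block 0.28 to 0.83.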

Other observations

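The nearest protein-coding neighbours of the members, chosen by position in assembly GRCm38.p6, were read from the same fit after the other results were known, each gene through its brightest tested probe set. None passed (limma, adjusted p from 0.965 to 0.988). Rcc1, the nucleotide exchange factor of Ran beside Snhg3, had a log2 fold change of 0.22 (SE 0.136) with groups that did not overlap, while its neighbour Snhg3 had 0.0024. Tcf24, beside Snhg6, had -0.22 (SE 0.136), also without overlap of the groups. These are 2 of 11 neighbours, singled out after their values were seen, where 8.40% of all probe sets had such groups (2.58% higher, 5.82% lower). Slc3a2, the heavy chain of amino acid transporters beside Snhg1, had -0.061 (SE 0.131), and Wdr74 on the other side of Snhg1 had -0.13 (SE 0.167). Frmd8, the neighbour of Neat1, had 0.25 (SE 0.268). Prss12 and Ndst3 on either side of Snhg8 had -0.21 (SE 0.189) and 0.24 (SE 0.352).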
